A study of Homo sapiens with 44 samples.

Results

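The data described here are the U937 arrays of a knockdown study of the kinase GSK3A in acute myeloid leukemia (AML) cell lines. They were chosen by their titles and comprise 4 arrays of U937 cells carrying a hairpin against GSK3A and 3 arrays of U937 cells carrying a scrambled control hairpin, 7 of the 44 arrays of the series. The 4 arrays come from 2 hairpins, construct 5 and construct 6 (hairpin 5 and hairpin 6 here), with 2 arrays each. The 4 U937 arrays with hairpins against GSK3B, and the 12 arrays with GSK3A hairpins and 9 controls of HL-60, THP-1 and MOLM-14, were used only to show where the GSK3A arrays of U937 differ.

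GSK3A and GSK3B encode a pair of closely related serine/threonine kinases that are active in resting cells and are inhibited when many growth factor and Wnt signals arrive. They phosphorylate glycogen synthase, which lowers glycogen synthesis, and they mark beta-catenin and MYC for degradation. In myeloid leukemia the kinases have been studied because their inhibition can push blast-like cells toward monocyte-like or granulocyte-like features. A monocyte carries Fc receptors, Toll-like receptor partners and chemokine receptors on its surface and a large lysosomal compartment, while a promyelocyte makes the serine proteases of the primary granules and grows rapidly.

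All groups were handled alike according to the labels. U937, a human line with monocyte-like features, was grown in RPMI medium with serum, infected with a hairpin, put under puromycin at 1 µg per mL from 48 h after infection, and used for RNA 48 h after that. Control cells therefore carry a hairpin and were under puromycin too. The labels call the arrays of a group biological replicates but do not say that they came from separate infections or cultures, so the p-values rest on the spread between such arrays, and that spread may be technical. No hairpin sequence was used here, and the labels do not say whether infected cells were cloned.

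RNA was measured on Affymetrix HT HG-U133A arrays, and the deposited values are intensities on a linear scale for 22277 probe sets. The brightest probe set stood for each of 12165 genes. Intensities of the 11 U937 arrays had medians of 21.0 to 21.5. Changes are given as log2 of the value plus 16 after quantile normalization, which understates the change of dim genes. The array wells named in the labels put controls 1 and 2 and replicate 1 of each hairpin in plate columns 1 to 6, and control 3 and replicate 2 in columns 7 to 11. In U937, 4392 genes differed between these column sets in the fit. By size alone, 63 of all genes differed by at least 1 on the log2 scale. Every comparison below was therefore made with the column set as a block, with limma and Benjamini-Hochberg adjustment over all genes and a threshold of 0.05.

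Defining genes of the line were checked first. PTPRC (the CD45 antigen) read 555 to 832 over the 7 arrays, the granule protease CTSG 3442 to 9650, and the Fc receptor FCGR1A 99.0 to 501. The granule peroxidase MPO read only 10.6 to 15.2, below every array's median, and the transcription factor SPI1 17.0 to 22.7, near it. Of other cell types, HBB (red cells), PF4 (platelets), CD3E (T cells), MS4A1 (B cells) and EPCAM (epithelium) stayed at or below 12.8 on every array. The platelet integrin ITGA2B read 15.3 to 19.7 and the stromal collagen COL1A1 17.5 to 27.4, the latter on some arrays above the median. In these bulk samples, fewer cells of a type and less RNA per cell cannot be told apart.

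The targeted transcript was slightly lower and did not pass the test. GSK3A read 46.5, 39.4 and 47.5 in the controls, 39.1 and 37.8 with hairpin 5, and 41.0 and 46.6 with hairpin 6. The groups overlapped, and the fitted change was -0.10 ± 0.05 (log2 ± SE, limma adjusted p = 0.238), with -0.17 for hairpin 5 (adjusted p = 0.0695) and -0.03 for hairpin 6 (adjusted p = 0.883). Another GSK3A probe set gave -0.04 (adjusted p over probe sets = 0.87). The labels state that the protein was checked by western blot, of which no values were used here. All directions below are thus those of arrays labelled with a GSK3A hairpin, for which the transcript level gives no check of the label.

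GSK3B, the related kinase, read 172, 168 and 160.5 in the controls, 197 and 190.4 with GSK3A hairpin 5, and 170.2 and 161 with hairpin 6. Its change of 0.10 ± 0.10 was within error (adjusted p = 0.612). In the arrays labelled with GSK3B hairpins it read 57.5, 51.1, 31.1 and 41.2, all below the other 7 U937 arrays.

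With the GSK3A hairpins 986 of 12165 genes were higher (8.11%) and 951 were lower (7.82%), 1937 in all (15.9%). Most changes were small. As shares of all genes tested, 77 rose (0.633%) and 26 fell (0.214%) by at least 1.5-fold, and 827 rose (6.8%) and 774 fell (6.36%) with 1 sign in all 4 hairpin-by-column values. In the deposited intensities, all 4 GSK3A arrays lay above all 3 controls for 670 genes (5.51%) and below them for 596 genes (4.9%). Without the plate column block 439 genes were higher (3.61%) and 372 lower (3.06%). When line and construct were taken as a random block, so that the spread between hairpins counted as error, 77 genes passed, 57 higher and 20 lower.

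The genes that rose most were led by receptors and accessory proteins of monocytes. LY96, the MD-2 partner that lets Toll-like receptor 4 bind lipopolysaccharide, read 11.3, 14.8 and 15.1 in the controls, 88.7 and 83.6 with hairpin 5, and 70.3 and 94.7 with hairpin 6. All 4 GSK3A arrays stood far above the dim controls, a change of 1.71 ± 0.12 (limma adjusted p = 6.5e-10). FCGR2B, the inhibitory Fc gamma receptor, read 39.3, 34.0 and 80.8 in the controls, 205 and 257 with hairpin 5, and 106 and 297 with hairpin 6, a change of 1.64 ± 0.18 (adjusted p = 6.3e-07). The groups did not overlap, though control 3 and both second replicates were the brightest of their kind. FCGR2B has near-identical copies, which this probe set may not tell apart.

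RNASE6, a secreted antimicrobial ribonuclease of monocytes, read 21.7, 22.3 and 13.4 in the controls, 67.1 and 41.4 with hairpin 5, and 122 and 111 with hairpin 6. Every GSK3A array was higher, and the change was 1.48 ± 0.07 (adjusted p = 1.4e-12). MS4A4A, a membrane protein of macrophages, read 58.3, 56.2 and 42.7 in the controls, 205 and 166 with hairpin 5, and 174 and 98.7 with hairpin 6. It too did not overlap, with a change of 1.40 ± 0.07 (adjusted p = 1.4e-12). CHI3L1, a secreted chitinase-like lectin of macrophages and neutrophils, read 31.0, 40.9 and 174 in the controls, 184 and 618 with hairpin 5, and 102 and 298 with hairpin 6. Its groups overlapped because control 3 lay far above the other controls, and within a column set both hairpins were higher than control. The change was 1.47 ± 0.11 (adjusted p = 2.9e-09), with 1.56 in columns 1 to 6 and 1.25 in columns 7 to 11.

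CD86, a co-stimulatory ligand for T cells, read 11.7, 12.7 and 9.83 in the controls, 49.0 and 26.5 with hairpin 5, and 49.5 and 36.3 with hairpin 6. It was dim in the controls and above them on all 4 arrays, a change of 1.02 ± 0.12 (adjusted p = 1.1e-06). The other rising genes with the largest changes were the calcium-binding protein ANXA1 (1.05 ± 0.13), the chemokine receptor CCR1 (1.01 ± 0.08), the MD-1 accessory protein LY86 (1.00 ± 0.09), MYOF (0.96 ± 0.09), the intermediate filament VIM (0.96 ± 0.09), EVI2B (0.93 ± 0.09) and ARHGEF3 (0.92 ± 0.08). VIM was the brightest of these, at 773, 748 and 1351 in the controls, 2118 and 2154 with hairpin 5, and 1356 and 1905 with hairpin 6. TREM1 and CX3CR1 also belong to the 15 largest rises, but mostly through hairpin 5, as described further on. With the random block, LY96 (adjusted p = 5.5e-07), FCGR2B (0.00397), RNASE6 (0.00113), CHI3L1 (0.00773), MS4A4A (0.00407), CD86 (0.031), LY86 (0.0199), EVI2B (0.0472) and ARHGEF3 (0.00202) still passed, and TREM1, ANXA1, CCR1, MYOF, VIM and CX3CR1 did not.

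**Figure D1:**
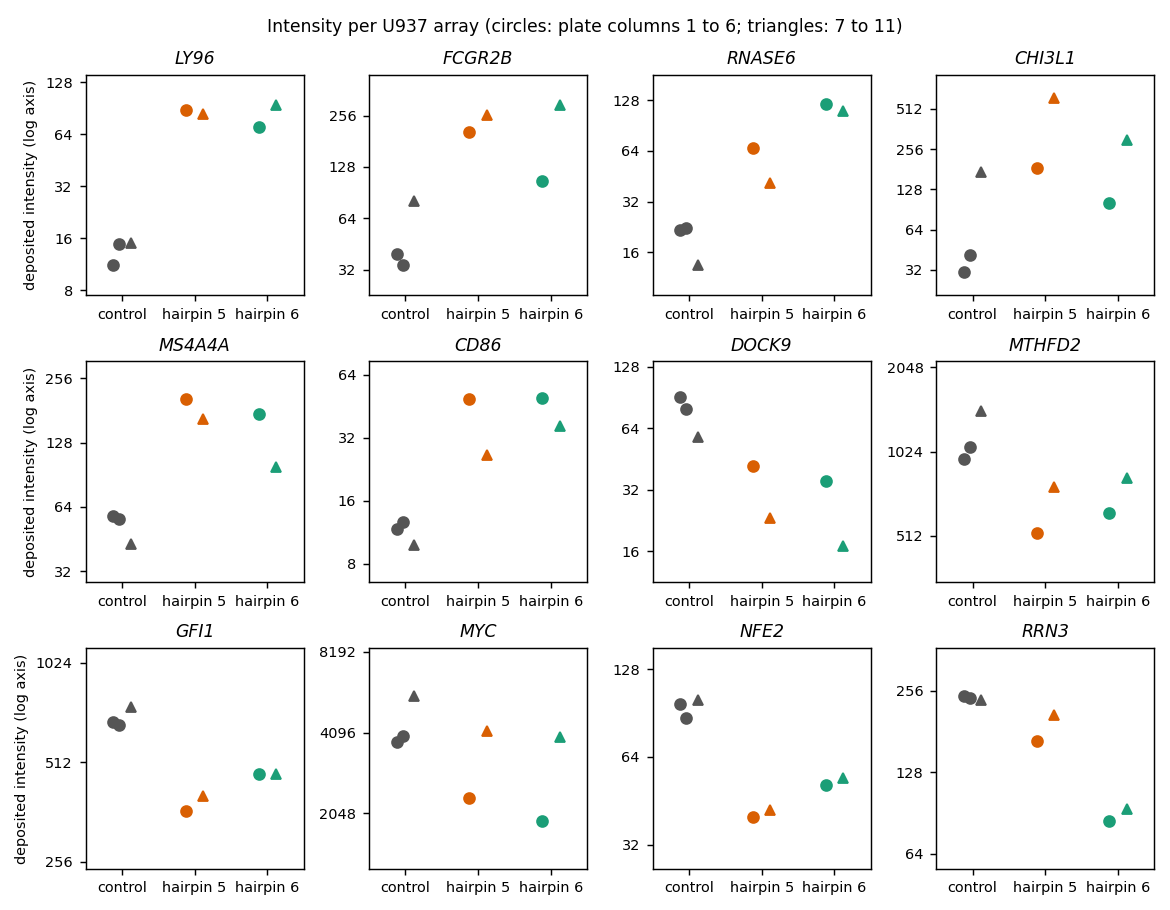
Deposited intensity (log axis) of 12 genes on each of the 7 U937 arrays, control in grey, GSK3A hairpin 5 in orange and hairpin 6 in green; circles are plate columns 1 to 6 and triangles columns 7 to 11. LY96 rose from at most 15.1 in the controls to at least 70.3 with the hairpins, while CHI3L1 and MYC also moved between the column sets in the controls.

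Of the genes that fell most, DOCK9, an exchange factor for CDC42, read 90.6, 79.6 and 57.8 in the controls, 42.0 and 23.3 with hairpin 5, and 35.4 and 17.0 with hairpin 6. All 4 arrays were below all controls, and the change was -0.97 ± 0.08 (adjusted p = 2.2e-08). NFE2, a transcription factor of the erythroid and megakaryocyte lineages, read 96.8, 86.6 and 101 in the controls, 39.7 and 42.1 with hairpin 5, and 51.2 and 54.2 with hairpin 6, a change of -0.84 ± 0.12 (adjusted p = 1.6e-05). The values fell into separate ranges in both column sets.

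MTHFD2, which makes folate-linked one-carbon units in mitochondria, read 962, 1063 and 1435 in the controls, 525 and 765 with hairpin 5, and 616 and 821 with hairpin 6. The groups did not overlap, and the change was -0.81 ± 0.07 (adjusted p = 9.1e-09). GFI1, a repressor that favours granulocytes over monocytes, read 679.7, 664 and 755 in the controls, 366 and 405 with hairpin 5, and 473 and 473 with hairpin 6, a change of -0.69 ± 0.06 (adjusted p = 9.5e-09). It too was below every control on all 4 arrays.

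MYC, the growth-driving transcription factor whose protein GSK3 marks for degradation, was among the brightest falling genes. It read 3764, 3968 and 5625 in the controls, 2339.6 and 4166 with hairpin 5, and 1913 and 3940.0 with hairpin 6. The ranges overlapped, since control 3 and both second replicates were high together, and within each column set both hairpins were below control. The change was -0.70 ± 0.09 (adjusted p = 7.4e-06), and without the plate column block it was -0.58 and did not pass (adjusted p = 0.101). BCL2, which protects cells from apoptosis, was also brighter in columns 7 to 11. It read 192, 185 and 274 in the controls, 110.4 and 185 with hairpin 5, and 95.4 and 189 with hairpin 6, a change of -0.68 ± 0.10 (adjusted p = 2.1e-05) that did not pass without the block (-0.55, adjusted p = 0.141).

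The other large falls were the neuropeptide GAL (-0.82 ± 0.09), the cell cycle regulator RGCC (-0.80 ± 0.09), RRN3 (-0.83 ± 0.08), which brings RNA polymerase I to ribosomal genes, CACNA2D3 (-0.76 ± 0.10), the palmitoyltransferase ZDHHC3 (-0.74 ± 0.09), the exchange factor RASGRP2 (-0.70 ± 0.08), the cyclin CCND2 (-0.69 ± 0.10), ART3 (-0.68 ± 0.19) and EGR1 (-0.77 ± 0.23). CACNA2D3 did not pass without the block (-0.64, adjusted p = 0.0517). ART3 and EGR1 were the least certain. ART3 did not pass when control 1 (-0.66, adjusted p = 0.0578), control 3 (-0.58, adjusted p = 0.116), hairpin 5 replicate 2 (-0.60, adjusted p = 0.0589) or hairpin 6 replicate 1 (-0.65, adjusted p = 0.0643) was left out. EGR1, an immediate early transcription factor, read 38.3 and 41.4 in controls 1 and 2 but 459 in control 3, and was at 20 and 12.1 in the first replicates and 269.9 and 275 in the second. It differed by 3.15 (log2) between column sets, and it failed the threshold on leaving out any array but hairpin 6 replicate 2, with adjusted p of 0.0524 to 0.101. Another probe set of EGR1 gave -0.36 (adjusted p over probe sets = 0.436), and the mean of its probe sets did not pass (-0.56, adjusted p = 0.0991). With the random block, DOCK9 (adjusted p = 0.00113), MTHFD2 (0.00843), MYC (0.033), GFI1 (0.00357) and BCL2 (0.0478) still passed and the other 10 did not.

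**Figure D2:**
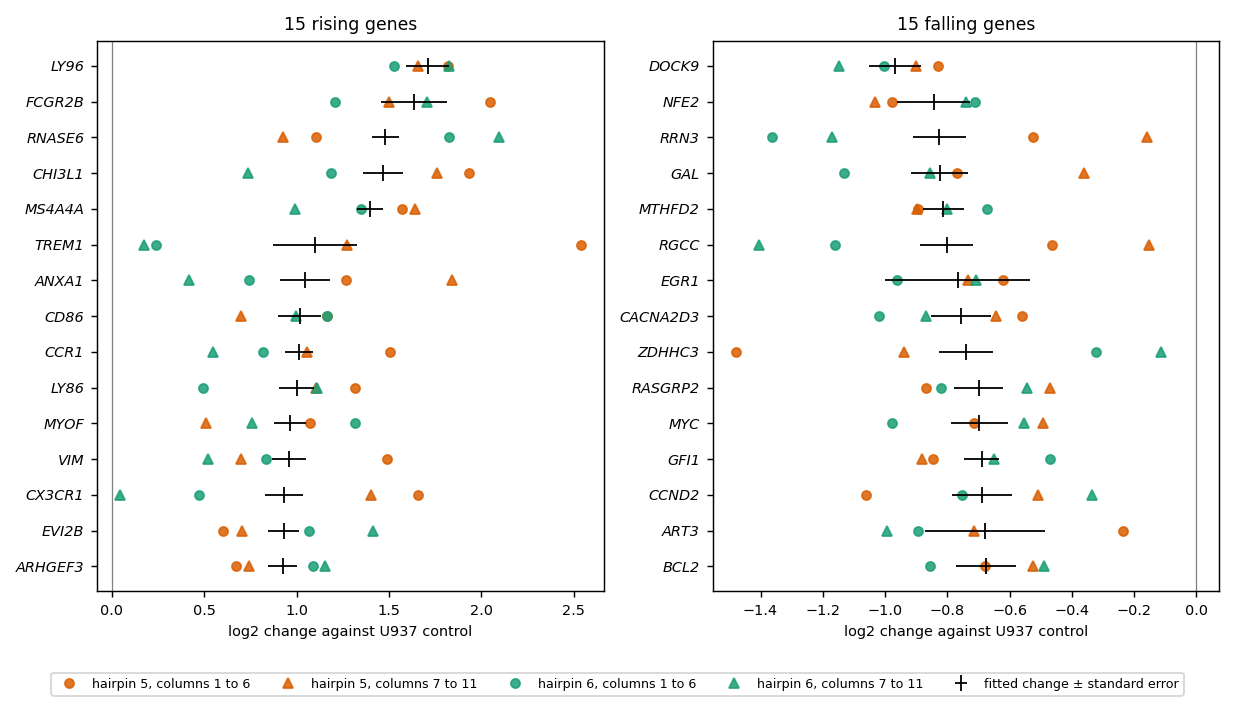
Log2 change against the U937 control of the same column set for the 15 genes with the largest rise and the 15 with the largest fall; orange is hairpin 5, green hairpin 6, circles columns 1 to 6, triangles columns 7 to 11, and black marks are the fitted change with its standard error. All points share the sign that the naming rule asked for, and TREM1, CX3CR1, ZDHHC3 and RRN3 spread widely between the hairpins.

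Gene lists were read next by counts and medians beside those of all 12165 genes, whose median change was -0.00. Of 47 measured monocyte surface receptors, 23 were higher and 1 was lower, 51.1% called against 15.9% of all genes, with a median change of 0.22. Beside LY96, FCGR2B, CD86, CCR1 and CX3CR1, the signalling adaptor TYROBP rose, from 151, 149 and 177 in the controls to 266 and 239 with hairpin 5 and 317 and 392 with hairpin 6 (0.86 ± 0.09, adjusted p = 3.4e-07). The integrin chain ITGAM (CD11b) read 88.0, 102 and 113 in the controls, 191 and 220.3 with hairpin 5, and 93.5 and 169 with hairpin 6. It rose by 0.54 ± 0.10 (adjusted p = 5.9e-04), though hairpin 6 replicate 1 lay within the control range, and by 0.27 with the mean of its probe sets. Under the random block 3 receptors passed, and TYROBP (adjusted p = 0.0528) and ITGAM (adjusted p = 0.733) did not. CD14, the lipopolysaccharide co-receptor, stayed dim at 6.83 to 9.57 on all 7 arrays (0.03 ± 0.06, adjusted p = 0.845). The lower member, singled out after its values were seen, was the aminopeptidase ANPEP (CD13), at -0.24 ± 0.08 (adjusted p = 0.043).

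Of 35 secreted and cytosolic proteins of monocytes and granulocytes, 17 were higher and 1 was lower, with a median of 0.24. The share called was 51.4%, against 15.9% of all genes. The higher ones included RNASE6, CHI3L1, the cathepsin CTSS, GLIPR1, the interleukin-1 receptor antagonist IL1RN and TNFAIP2. EVI2B was also counted in this list, and where its protein lies was not tested. The lower one, named after its values were seen, was the lectin FCN1 (-0.34 ± 0.09, adjusted p = 0.00996). Under the random block 4 members passed. The count of higher members was 11 when control 1, control 2, hairpin 5 replicate 1 or hairpin 6 replicate 2 was left out. S100A8, a calcium-binding protein of monocytes and neutrophils, passed at 0.42 ± 0.12 but rested on hairpin 5. It read 122, 117 and 23.7 in the controls, 273 and 51.6 with hairpin 5, and 104 and 21.1 with hairpin 6, and without control 1 (0.40, adjusted p = 0.0661), control 2 (0.38, adjusted p = 0.0820), hairpin 5 replicate 1 (0.35, adjusted p = 0.127) or hairpin 6 replicate 2 (0.36, adjusted p = 0.0779) it did not pass. Its partner S100A9 did not pass (0.26 ± 0.10, adjusted p = 0.0848).

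Primary granule proteins are stored by promyelocytes. Of 12 measured genes in the list of that name, 5 were lower (PLAC8, PRTN3, AZU1, ELANE and CTSG) and none higher, with a median of -0.11. The share called was 41.7%, against 15.9% of all genes. PLAC8 was counted in the list, but whether its protein is stored in these granules was not tested. It was the only member lower without the plate column block. PLAC8 read 399, 361 and 237 in the controls, 183 and 136 with hairpin 5, and 291 and 211 with hairpin 6 (-0.57 ± 0.10, adjusted p = 2.2e-04), so hairpin 6 overlapped the controls. The neutrophil serine protease homologue AZU1 read 184, 259 and 618 in the controls, 132 and 409.9 with hairpin 5, and 154 and 447 with hairpin 6 (-0.52 ± 0.11, adjusted p = 0.00147). AZU1, PRTN3, ELANE and CTSG were all much brighter in columns 7 to 11, and none of the 4 passed without the plate column block. No member of the list passed with the random block, with adjusted p of 0.4 to 0.935 for the 5, and with the replicate number as block AZU1 (0.20), ELANE (0.18) and CTSG (0.21) changed sign. PRTN3 (-0.54 ± 0.14) did not pass without control 2 (-0.35), hairpin 5 replicate 1 (-0.32) or hairpin 6 replicate 1 (-0.47). ELANE (-0.36 ± 0.10) did not pass without control 3 (-0.35), hairpin 5 replicate 1 (-0.22) or hairpin 6 replicate 1 (-0.32), and CTSG (-0.25 ± 0.07) did not pass without control 1 (-0.20), hairpin 5 replicate 1 (-0.18) or hairpin 6 replicate 1 (-0.13). Without hairpin 5 replicate 1, or without hairpin 6 replicate 1, 2 members of the list were lower. MPO, the other classic protein of these granules, was near the dim end of the array and did not pass (0.13 ± 0.11, adjusted p = 0.534).

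Transcription factors of the myeloid lineage moved in both directions, 4 of 31 higher and 7 lower, 35.5% called against 15.9% of all genes. PPARG, a nuclear receptor of lipid-handling macrophages, read 47.1, 41.0 and 83.4 in the controls, 76.6 and 119.6 with hairpin 5, and 97.8 and 115 with hairpin 6. It rose by 0.63 ± 0.07 (adjusted p = 5.1e-07), with overlap through control 3 alone. MYB, a factor of progenitor growth, read 1966, 1956 and 2411 in the controls, 1280.1 and 1702 with hairpin 5, and 1646 and 1943 with hairpin 6, below every control on all 4 arrays (-0.42 ± 0.05, adjusted p = 5.5e-07). The granulocyte regulator CEBPA fell by 0.20 ± 0.05 (adjusted p = 0.00374) and did not pass without control 3 (-0.15, adjusted p = 0.0689). With control 1 left out 1 member was higher, with control 2, hairpin 5 replicate 1 or hairpin 6 replicate 1 left out 2 were, and without control 3 there were 4 lower members. Among 22 stem and progenitor genes 22.7% were called, against 15.9% of all genes. Of them 4 were lower (CD38, MYB, LYL1 and ERG) and 1 higher, the homeobox gene PBX3 (0.37 ± 0.06). ERG (-0.22) did not pass without control 1 (-0.12), hairpin 5 replicate 1 (-0.20) or hairpin 6 replicate 1 (-0.20). MEIS1, the partner of PBX3 and HOX proteins in leukemia, did not pass (0.12 ± 0.08, adjusted p = 0.395).

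Of 58 measured lysosome and autophagy genes 32 were higher and 1 was lower, with a median of 0.23, of 0.20 with hairpin 5 and of 0.22 with hairpin 6. The share called was 56.9%, against 15.9% of all genes. The rises were modest and shared by enzymes and the acidifying proton pump. CTSS, a protease that trims antigens in the endosome, read 202, 192 and 194 in the controls, 347 and 344 with hairpin 5, and 423 and 425 with hairpin 6 (0.92 ± 0.08, adjusted p = 1.1e-08). Controls and hairpins were each tight and far apart. CTSB, another cathepsin, read 904, 949 and 1239.8 in the controls, 1416 and 1736 with hairpin 5, and 1402 and 1755 with hairpin 6 (0.58 ± 0.06, adjusted p = 3.9e-07).

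The pump subunits ATP6V1H (0.51 ± 0.04), ATP6V1B2 (0.50 ± 0.05) and ATP6V0D1 (0.46 ± 0.06) rose as well. ATP6V1H read 372, 379.8 and 344 in the controls, 481 and 413 with hairpin 5, and 630.3 and 557 with hairpin 6, all 4 above the controls. ATP6V1B2 did not pass without the plate column block (0.45, adjusted p = 0.218). The lower member, named after its values were seen, was the cholesterol transporter NPC1, at -0.41 ± 0.11 (adjusted p = 0.0119). With the random block CTSS (adjusted p = 1.7e-04), CTSB (0.0312), ATP6V1H (0.00407) and ATP6V1B2 (0.0202) still passed, and no other member of the list.

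Of 56 interferon response genes 22 were higher and none lower, 39.3% called against 15.9% of all genes, with a median of 0.12. IFI6, a mitochondrial protein induced by interferon, read 167, 166 and 206 in the controls, 388 and 297 with hairpin 5, and 285 and 458 with hairpin 6 (0.90 ± 0.14, adjusted p = 8.4e-05). IRF9, the DNA-binding part of the interferon-activated complex, read 40.1, 39.6 and 40.1 in the controls, 119.5 and 81.4 with hairpin 5, and 59.9 and 99.2 with hairpin 6 (0.89 ± 0.11, adjusted p = 2.3e-06). The nucleic acid sensor IFI16 read 336, 312 and 630.1 in the controls, 786 and 815 with hairpin 5, and 729 and 1010.3 with hairpin 6 (0.88 ± 0.11, adjusted p = 2.3e-06). None of these 3 overlapped between groups. OAS1, which makes the activator of the RNA-cutting enzyme RNase L, was dim but also separate, 7.59 to 9.37 in the controls and 12.7 to 21.4 with the hairpins (0.50 ± 0.07). Without hairpin 5 replicate 1 the list had 13 higher members, and with the random block it had none higher and none lower.

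In the class I antigen presentation list 11 of 18 genes were higher and 1 lower, with a median of 0.18. The share called was 66.7%, against 15.9% of all genes. PSMB9, a catalytic subunit of the immunoproteasome, read 169, 158 and 228 in the controls, 338 and 237 with hairpin 5, and 339 and 278 with hairpin 6 (0.66 ± 0.10, adjusted p = 5.4e-05). PSMB10, another such subunit, was tighter, at 210.3, 209 and 231 in the controls, 267 and 268 with hairpin 5, and 268 and 274 with hairpin 6 (0.30 ± 0.05, adjusted p = 3.5e-04). Both were above the controls on all 4 arrays. The class I heavy chains HLA-C (0.31 ± 0.05), HLA-E (0.42 ± 0.07) and HLA-B (0.35 ± 0.06), whose probe sets can share sequence with each other, were also brighter in control 3, and HLA-E and HLA-B did not pass without the plate column block (0.50 and 0.45, adjusted p = 0.066 and 0.117). The lower gene, named after its values were seen, was the peptide transporter subunit TAP2 (-0.24 ± 0.07, adjusted p = 0.0141). No gene of the list passed with the random block, where PSMB9 had an adjusted p of 0.127, PSMB10 of 0.192, HLA-E of 0.186, HLA-B of 0.199 and HLA-C of 0.33. HLA-C gave 0.09 with the mean of its probe sets. The count of higher genes was 6 without control 1 or without hairpin 5 replicate 1, and 7 without control 2. In the class II list 26.7% were called, against 15.9% of all genes, and 4 of 15 were higher: CTSS, HLA-DRB1 (0.60), IFI30 (0.42) and HLA-DMA (0.41). HLA-DRB1 did not pass without control 2 (0.52, adjusted p = 0.0514), IFI30 without hairpin 5 replicate 1 (0.35, adjusted p = 0.0588), and HLA-DMA without control 1 (0.37, adjusted p = 0.0630) or hairpin 5 replicate 2 (0.31, adjusted p = 0.0697).

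Of 37 genes of MYC and ribosome biogenesis 23 were lower and none higher, with a median of -0.21, of -0.20 with hairpin 5 and of -0.24 with hairpin 6. The share called was 62.2%, against 15.9% of all genes. Leaving out any 1 of the 7 arrays left 19 to 22 lower members and none higher. DDX21, a helicase that couples polymerase I to RNA processing, read 2030.4, 1894 and 1545 in the controls, 1439 and 1216 with hairpin 5, and 1018 and 805 with hairpin 6 (-0.67 ± 0.05, adjusted p = 6.5e-10), below every control. The nucleolar protein NOP16 read 959, 887 and 696 in the controls, 685 and 529 with hairpin 5, and 599.7 and 548 with hairpin 6 (-0.42 ± 0.06, adjusted p = 7.3e-06), also without overlap. MRTO4, a ribosome assembly factor, fell by 0.34 ± 0.04 (adjusted p = 3.7e-06). In both column sets the list's median was negative, -0.22 in columns 1 to 6 and -0.19 in columns 7 to 11. With the random block 2 members passed.

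**Figure D3:**
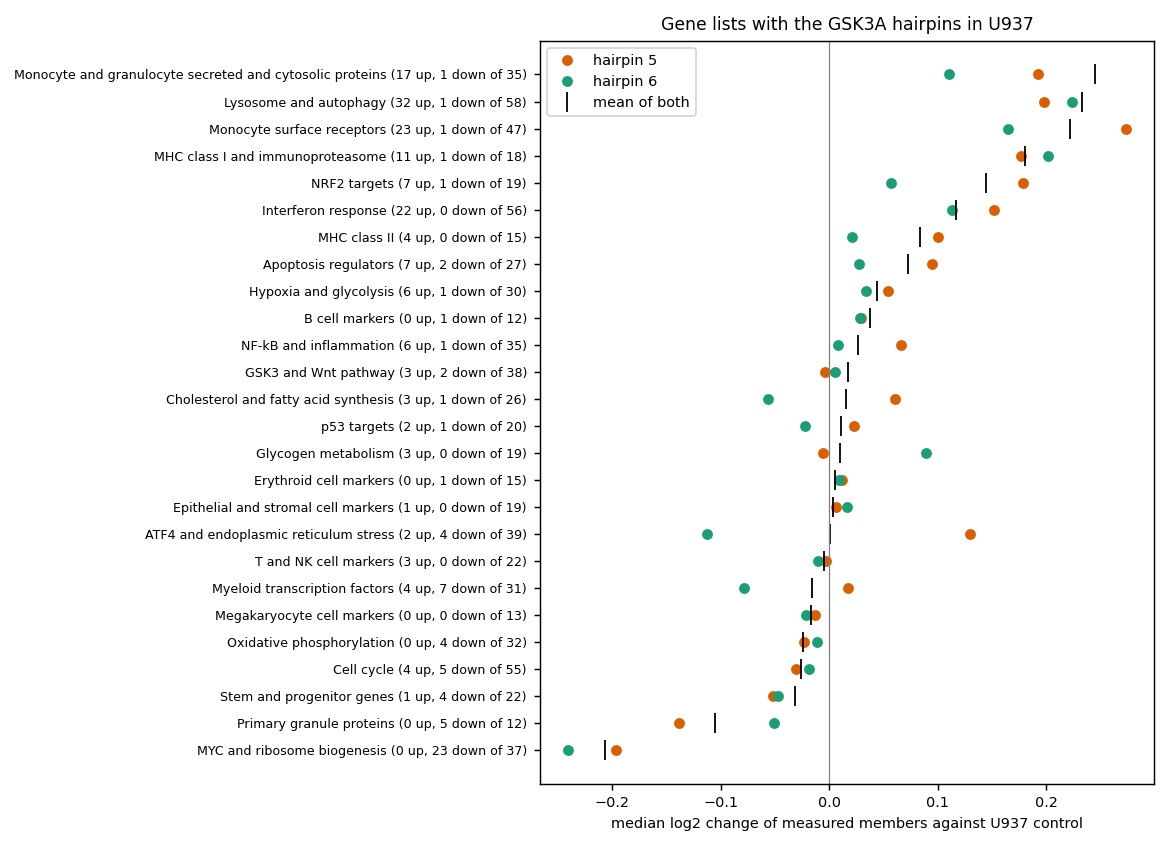
Median log2 change against the U937 control of the measured members of each of 26 gene lists, with hairpin 5 in orange, hairpin 6 in green and the mean of both as a black mark; labels give how many members were higher and lower of those measured. Monocyte, lysosome and class I lists lie at 0.18 to 0.24 and the MYC and ribosome list at -0.21, and the ATF4 list has medians of 0.13 with hairpin 5 and -0.11 with hairpin 6.

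Of 38 measured GSK3 and Wnt genes 3 were higher (PPARD, CCND3 and FBXW11) and 2 lower (MYC and CCND2), 13.2% against 15.9% of all genes, with a median of 0.02. Beta-catenin's own gene CTNNB1 read 1266, 1293 and 1063 in the controls, 1114 and 1182 with hairpin 5, and 1324 and 1233 with hairpin 6 (0.04 ± 0.07, adjusted p = 0.807), with full overlap. PPARD, a nuclear receptor, read 95.3, 96.0 and 128 in the controls, 154 and 198 with hairpin 5, and 142 and 244 with hairpin 6, above every control (0.60 ± 0.07, adjusted p = 3.9e-06). FBXW11, an adaptor of the ligase that takes beta-catenin to the proteasome, was called at 0.17, but not without control 1, 2 or 3 (0.17, 0.17 and 0.18), hairpin 5 replicate 1 (0.14) or hairpin 6 replicate 2 (0.14). Of 19 glycogen genes 3 were higher by 0.15 to 0.23 (GYG1, PPP1R3D and PYGB), and none lower, 15.8% called against 15.9% of all genes. Another bright probe set of GYG1 gave 0.02 (adjusted p over probe sets = 0.971), and with the mean of probe sets GYG1 did not pass (0.08, adjusted p = 0.451). PYGB (0.23) did not pass without control 2 (0.21), hairpin 5 replicate 2 (0.18) or hairpin 6 replicate 1 (0.20), and GYG1 (0.15) not without control 1 (0.13), control 2 (0.15) or hairpin 6 replicate 2 (0.14). PPP1R3D (0.19) passed in the absence of control 3 and in no other of the 7 cases, which gave 0.15 to 0.22.

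The shares called in the cell cycle (16.4%), p53 (15%) and oxidative phosphorylation (12.5%) lists were near or below the 15.9% of all genes. Those of the NF-kB and inflammation (20%) and hypoxia and glycolysis (23.3%) lists were somewhat above it. Apoptosis regulators (33.3%) and NRF2 targets (42.1%) had larger shares. In the cell cycle list 4 of 55 were higher and 5 lower; the higher ones included the cyclin-dependent kinase inhibitor CDKN2D, which read 31.97, 33.7 and 28.6 in the controls and 42.8 to 61.6 with the hairpins (0.53 ± 0.09, adjusted p = 1.1e-04). Leaving out hairpin 6 replicate 1 gave 10 lower members and leaving out hairpin 6 replicate 2 gave 8 higher ones, while 3 were lower without control 1, control 2, hairpin 5 replicate 2 or hairpin 6 replicate 2. Of 27 apoptosis regulators 7 were higher, including CASP8 (0.46 ± 0.07), BCL2L2 (0.48 ± 0.08) and TNFSF10 (0.48 ± 0.09), and 2 lower, 1 of them BCL2; 4 were higher without control 2 or hairpin 5 replicate 1. Of 30 hypoxia and glycolysis genes 6 were higher, led by the glucose transporter SLC2A3 (0.67 ± 0.13) and the mitophagy receptor BNIP3L (0.66 ± 0.07), and 1 lower. Of 19 NRF2 targets 7 were higher and 1 lower, with 4 higher without control 1 or hairpin 5 replicate 1; the quinone reductase NQO1 (0.63 ± 0.08) was far dimmer in columns 7 to 11 and did not pass without the block (0.41, adjusted p = 0.792). Of 32 oxidative phosphorylation genes none was higher and 4 were lower, and 2 without control 3, hairpin 5 replicate 1 or hairpin 6 replicate 2. Of 35 NF-kB and inflammation genes 6 were higher and 1 lower, and of 20 p53 targets 2 were higher and 1 lower, with none higher without control 2 or hairpin 5 replicate 1.

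Markers of other blood and tissue cells were mostly under the median of the genes tested. None of 13 megakaryocyte markers passed, and 1 of 15 erythroid, 3 of 22 T and NK, 1 of 12 B and 1 of 19 epithelial and stromal markers did. These shares, at most 13.6% (T and NK), were below the 15.9% of all genes. The summed intensity of the erythroid markers was 264 to 286 in the controls and 242 to 272 with the hairpins, and that of the T and NK markers 1051 to 1363 and 1215 to 1553. The B cell sums were 153 to 234 and 133 to 262, and the epithelial and stromal sums 431 to 631 and 454 to 794. Members counted as under the array median were 12 of 15, 13 of 13, 20 of 22, 10 of 12 and 18 of 19. These 5 lists are given in the order erythroid, megakaryocyte, T and NK, B, epithelial and stromal. The median used in this count may not be the 21.0 to 21.5 given for the U937 arrays above.

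The start sites of the interferon and class I genes were looked at because these genes rose together. RefSeq windows (GRCh38.p14) from 250 bases before to 50 after the start were matched by symbol for 9711 of the tested genes. The pattern GAAANNGAAA, the core of the element bound by interferon-activated factors, was searched on both strands. It was in 3.65% of all 27305 windows and in 2.99% of those of tested genes. Of interferon list genes that rose, 11 of 19 with a window held it (57.9%), and so did 17 of 26 that did not pass (65.4%). In the class I list 6 of 10 higher genes held it, as did 2 of 5 that did not pass and the 1 lower gene. Shown are the 250 bases before the start of IFI6, whose 3 copies all lie before the start, at chr1:27672193-27672442, minus strand, and of PSMB10, with 1 copy, at chr16:67936851-67937100, minus strand; capitals mark the pattern.
IFI6: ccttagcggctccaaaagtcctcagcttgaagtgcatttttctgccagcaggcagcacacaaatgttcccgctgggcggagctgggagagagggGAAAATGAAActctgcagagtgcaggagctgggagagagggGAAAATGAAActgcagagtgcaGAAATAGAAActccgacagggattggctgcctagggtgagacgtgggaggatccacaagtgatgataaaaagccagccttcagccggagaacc
PSMB10: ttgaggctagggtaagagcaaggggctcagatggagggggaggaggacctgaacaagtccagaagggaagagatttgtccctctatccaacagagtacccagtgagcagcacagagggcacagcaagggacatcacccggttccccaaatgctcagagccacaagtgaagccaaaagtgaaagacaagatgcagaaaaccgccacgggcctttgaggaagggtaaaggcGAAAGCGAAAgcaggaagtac

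For the lysosome genes the pattern TCACGTG, read on both strands and typical of the factors TFEB and TFE3, was in 3.82% of all windows and in 5.29% of those of tested genes. Of lysosome genes that rose, 3 of 19 with a window held it (15.8%), against 7 of 22 that did not pass (31.8%). Among the 3 is the pump subunit ATP6V0D1. The 250 bases before its start, at chr16:67481158-67481407, minus strand, are shown with overlapping matches on both strands in capitals. A match is a description of letters in a window, not a site in use.
ATP6V0D1: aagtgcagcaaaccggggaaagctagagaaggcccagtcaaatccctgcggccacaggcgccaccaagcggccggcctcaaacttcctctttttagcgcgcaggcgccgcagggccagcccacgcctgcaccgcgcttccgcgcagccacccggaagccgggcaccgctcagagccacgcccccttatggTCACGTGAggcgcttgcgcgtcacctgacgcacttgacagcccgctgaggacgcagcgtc

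The hairpins were then set against each other, on arrays that do not involve the controls. Between hairpin 5 and hairpin 6, 1035 genes differed (8.51%), 518 higher with hairpin 5 (4.26%) and 517 lower (4.25%). Against the shared controls 1595 genes were called with hairpin 5 (13.1%), 845 higher (6.95%) and 750 lower (6.17%), and 1747 with hairpin 6 (14.4%), 895 higher (7.36%) and 852 lower (7%). CNN2, an actin-binding calponin, differed most among genes lower with hairpin 5. It read 184, 201 and 189 in the controls, 46.2 and 49.98 with hairpin 5, and 189 and 191 with hairpin 6, so hairpin 6 sat within the control range while hairpin 5 lay far below it (hairpin 5 minus hairpin 6, -1.68 ± 0.10, adjusted p = 3.2e-11). The transcription factor FOXN3 (-1.25 ± 0.10), the kinase STK3 (-1.04 ± 0.10), the small GTPase CDC42 (-1.03 ± 0.08) and the adaptor NCK2 (-1.02 ± 0.06) fell with hairpin 5 and gave 0.24, 0.15, 0.23 and 0.28 with hairpin 6. TMEM9B, the decapping enzyme DCP2 and ZDHHC3 complete the 8 largest differences in that direction. Whether hairpin 5 acts on any of these transcripts itself was not tested.

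The largest differences in the other direction follow. CCL2, the monocyte chemoattractant, read 841, 837 and 170.3 in the controls, 1413 and 545 with hairpin 5, and 342 and 159 with hairpin 6. In each column set hairpin 5 was above control and hairpin 6 below it. The changes fitted over both sets were 1.06 and -0.77 (both called, adjusted p = 5.8e-05 and 0.0015), a difference of 1.83 ± 0.18 (adjusted p = 8.6e-08). The fall with hairpin 6 was mostly that from 841 and 837 to 342, while its other array read 159 beside the control at 170.3. CD48, an adhesion ligand, read 109, 92.4 and 102 in the controls, 442 and 354 with hairpin 5, and 74.8 and 138 with hairpin 6 (1.80 ± 0.20, adjusted p = 6.6e-07). TREM1, an amplifier of inflammatory signals, read 15.7, 14.4 and 12.2 in the controls, 171 and 53.3 with hairpin 5, and 21.2 and 16.1 with hairpin 6 (1.70 ± 0.30, adjusted p = 3.5e-04).

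CX3CR1, the fractalkine receptor, read 100.4, 103 and 146 in the controls, 363 and 406 with hairpin 5, and 150.2 and 150.2 with hairpin 6 (1.27 ± 0.13, adjusted p = 2.9e-07). For CD48, TREM1 and CX3CR1 the hairpin 6 change did not pass (-0.04, 0.25 and 0.30). The inhibitory receptor SIGLEC5 read 114, 126 and 97.5 in the controls, 171 and 99.2 with hairpin 5, and 60.3 and 31.7 with hairpin 6, lower with hairpin 6 on both arrays (1.28 ± 0.11, adjusted p = 7.0e-09). The heme-degrading enzyme HMOX1 (1.40 ± 0.31), PCYOX1L (1.29 ± 0.12) and ACOX2 (1.23 ± 0.14) were the others; HMOX1 was far dimmer in columns 7 to 11 (-2.42 against columns 1 to 6).

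RNASE6 and RRN3, among the genes that moved with both hairpins, moved more with hairpin 6. RNASE6 differed by -0.95 ± 0.09 (adjusted p = 1.6e-07), and RRN3, at 246, 242 and 236 in the controls, 167 and 209 with hairpin 5, and 84.4 and 93.8 with hairpin 6, by 0.93 ± 0.11 (adjusted p = 1.9e-06). LY96 (0.06 ± 0.15), CD86 (-0.15 ± 0.15), MTHFD2 (-0.16 ± 0.09), MYC (0.16 ± 0.12), BCL2 (0.07 ± 0.12) and CTSB (-0.02 ± 0.08) did not pass for a difference between hairpins. By list, 12 of 39 genes of the ATF4 and endoplasmic reticulum stress response were higher with hairpin 5 than with hairpin 6 and none lower, with a median difference of 0.24. They made up 30.8%, against 8.51% of all genes. Against control this list had 8 higher and 2 lower with hairpin 5 and 1 higher and 9 lower with hairpin 6. Its members MTHFD2, SLC1A5 (-0.65 and -0.43) and XBP1 (-0.24 and -0.47) were negative with each hairpin. In the cholesterol list 5 of 26 were higher with hairpin 5 (19.2%, against 8.51% of all genes called) and none lower. Among them was the sterol enzyme MSMO1, at 552, 566 and 341 in the controls, 1031 and 712 with hairpin 5, and 494 and 424 with hairpin 6 (0.87 ± 0.13, adjusted p = 5.1e-05).

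**Figure D4:**
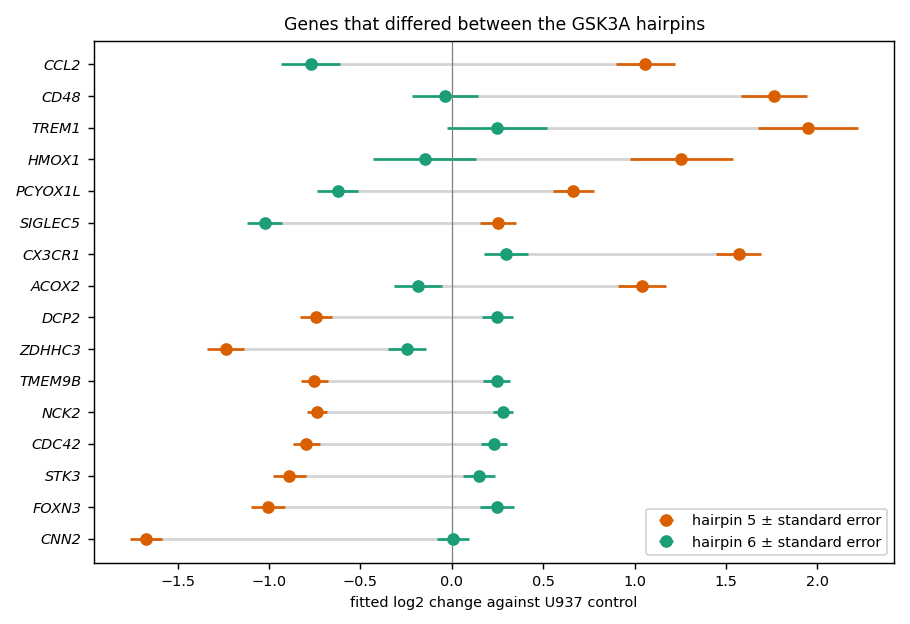
Fitted log2 change against the U937 control, with its standard error, for the 8 genes most above and the 8 most below with hairpin 5 (orange) compared with hairpin 6 (green). CCL2 was on opposite sides of 0 with the hairpins, and CNN2 lay at -1.67 with hairpin 5 and 0.01 with hairpin 6.

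The GSK3A arrays were also set directly against the 4 GSK3B hairpin arrays of U937, with which they share no array. In this comparison 1768 genes differed (14.5%), 861 higher (7.08%) and 907 lower (7.46%) with the GSK3A hairpins. GSK3B itself was higher by 1.69 ± 0.09 (adjusted p = 5.8e-12). LY96 read 19.5, 14.7, 15.6 and 19.1 with the GSK3B hairpins, far below the GSK3A arrays (1.57 ± 0.11, adjusted p = 3.6e-10). FCGR2B (1.66 ± 0.16), RNASE6 (1.33 ± 0.07), CX3CR1 (1.10 ± 0.09), MS4A4A (1.07 ± 0.06) and TREM1 (1.04 ± 0.21) were likewise higher. CD86, at 13.9, 10.1, 9.67 and 14.4 with the GSK3B hairpins, was higher by 0.96 ± 0.11 (adjusted p = 6.3e-07).

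ALCAM, an adhesion molecule, read 121, 126 and 116 in the controls, 91.0, 82.8, 74.7 and 57.8 with the GSK3A hairpins and 127, 123, 221 and 171 with the GSK3B hairpins, so that the GSK3A arrays were below all others (-0.91 ± 0.06, adjusted p = 8.4e-11). CCND2 (-0.81 ± 0.09), CNN2 (-0.83 ± 0.07), RRN3 (-0.78 ± 0.08), DOCK9 (-0.74 ± 0.08) and DPY19L4 (-0.70 ± 0.10) were also lower than with the GSK3B hairpins. The CNN2 difference rests on hairpin 5, since both hairpin 6 arrays lay within the control range. MYC (-0.48 ± 0.08, adjusted p = 2.6e-04) and BCL2 (-0.49 ± 0.09, adjusted p = 3.3e-04) were lower as well. By list, 25 of 47 monocyte receptors were higher and none lower, and 22 of 37 MYC and ribosome genes were lower and none higher. The lysosome list had 19 higher and 2 lower of 58 and the interferon list 19 higher and none lower of 56. The shares called in these lists were 53.2%, 59.5%, 36.2% and 33.9% in that order, against 14.5% of all genes. HLA-B (0.12 ± 0.06, adjusted p = 0.206) did not pass.

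Against the mean GSK3A change of HL-60, THP-1 and MOLM-14, 538 genes changed differently in U937 (4.42%), 292 more upward (2.4%) and 246 more downward (2.02%). The genes named here were also called against control in U937. Among such genes MS4A4A stood out most, with 1.40 in U937, -0.02 in HL-60, -0.05 in THP-1 and -0.59 in MOLM-14 (difference 1.62 ± 0.08, adjusted p = 2.6e-12). LY96 rose by 1.71 in U937 and by 1.13 in MOLM-14 and 0.36 in HL-60, and gave 0.01 in THP-1 (1.21 ± 0.13, adjusted p = 4.0e-06). FCGR2B gave 1.64, 1.22, 0.43 and 0.00 in the same order of lines (1.08 ± 0.21, adjusted p = 0.00292). VIM (0.85 ± 0.11) and ANXA1 (0.85 ± 0.15) also rose more in U937 than the mean of the other lines. The Polycomb-related gene SCML1 read 54.6, 72.5 and 61.4 in the U937 controls, 154 and 108 with hairpin 5, and 158 and 109 with hairpin 6 (0.91 ± 0.07). Its control means of 5.32 in HL-60, 10.9 in THP-1 and 5.34 in MOLM-14 are near the bottom of the arrays.

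CACNA2D3, a calcium channel subunit, fell by 0.76 in U937 and gave 0.07, 0.23 and 0.06 in HL-60, THP-1 and MOLM-14 (-0.88 ± 0.11, adjusted p = 3.1e-05). The lipid phosphatase INPP4B read 179, 202 and 170.2 in the U937 controls and 109.6 to 134 with the hairpins, a fall of 0.50, whereas it rose by 0.50 in MOLM-14 and gave 0.07 in HL-60 and 0.22 in THP-1 (-0.76 ± 0.09, adjusted p = 2.0e-05). NFE2 fell by 0.84 in U937 and gave -0.14, -0.10 and -0.07 in the other lines (-0.74 ± 0.14, adjusted p = 0.00192). NPTXR, IFT57 and NPDC1 were the other genes with the largest downward differences among those also called against control in U937. The NPTXR control means of 10.9 in HL-60, 16.3 in THP-1 and 11.2 in MOLM-14 are dim, where a fall is understated. IFT57 (-0.29 in U937) and NPDC1 (-0.20) each lost the call against control in U937 on leaving out 1 array, IFT57 without control 1 (-0.27), control 3 (-0.28), hairpin 5 replicate 1 (-0.23) or hairpin 6 replicate 1 (-0.27), and NPDC1 without control 2 (-0.13), control 3 (-0.18), hairpin 5 replicate 1 (-0.17) or hairpin 6 replicate 1 (-0.19) or 2 (-0.20).

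For other genes with large changes in U937, the difference from the other lines did not pass. MTHFD2 fell by 0.81 in U937, 1.15 in HL-60, 0.55 in THP-1 and 1.24 in MOLM-14 (difference 0.17 ± 0.08, adjusted p = 0.266). GAL gave -0.82, -0.83, -0.55 and -1.10 in the same order (adjusted p = 0.999). RASGRP2 gave -0.70, -0.50, -0.46 and -1.32 (adjusted p = 0.833), and CD86 gave 1.02, 1.30, 0.09 and 1.47 (adjusted p = 0.903). CD14, dim in U937, rose by 1.21 in HL-60, from a mean of 262 in its controls to 729. By list, 11 of 55 cell cycle genes changed more upward in U937 than the mean of the other lines and 1 more downward, 21.8% called against 4.42% of all genes. The list's median difference was 0.22, although its median change in U937 itself was -0.03. This comparison does not show which of the other lines set their mean.

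**Figure D5:**
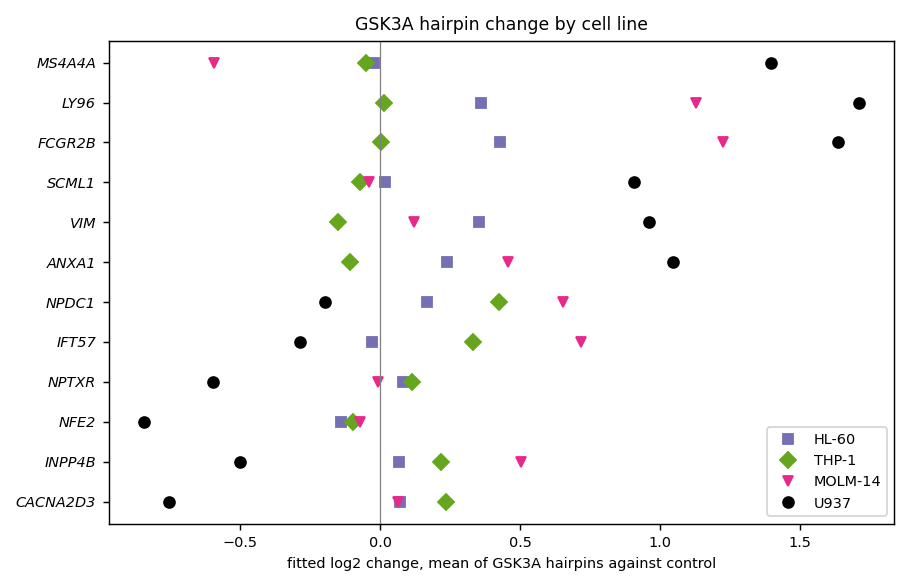
Fitted log2 change, mean of both GSK3A hairpins against the control of the same line, for 12 genes. Among genes also called against control in U937, they differed most each way between U937 (black) and the mean of HL-60, THP-1 and MOLM-14. U937 lies apart from the other lines for MS4A4A, SCML1, VIM, NFE2 and CACNA2D3, while MOLM-14 comes near it for LY96 and FCGR2B.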

How the data were processed

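RNA of 44 samples was hybridised to HT HG-U133A arrays, and the deposited series table holds linear intensity values that the authors made before deposit. The submitters' processing notes name RMA and MAS5; the sources used here do not say which of them gave the table, nor their versions. Of 22277 probe sets, 19724 had 1 gene symbol, 568 several, 1923 none and 62 were controls; only those with 1 symbol were named, and the brightest probe set stood for a gene. Values were quantile-normalized as log2(value + 16) and fitted with limma 3.58.1 in R 4.3.3 over all 44 arrays, with 20 group means and a plate column effect for each line (20 residual degrees of freedom), and adjusted by the Benjamini-Hochberg method over 12165 genes. Groups came from the sample titles.

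In U937 the second replicates deviated with control 3 (r of 0.76 to 0.82 across genes), and not with the difference of controls 2 and 1 (0.01 to 0.05), so the plate column was the block. On simulated data this fit recovered 100 of 100 genes changed by 1 and 99 of 100 changed by 0.5 (log2), with 10 false calls of 209. The share of false calls on the real arrays was not tested. Named genes were the 15 largest rises and 15 largest falls with 1 sign in all 4 hairpin-by-column values, and the 8 largest differences between hairpins each way. For the other contrasts they were the 6 largest each way among genes also called in the GSK3A change in U937. Up to 5 called members of each list were added. So were GSK3A, GSK3B and a fixed set of MYC, CD14, ITGAM, MPO, CTNNB1, MEIS1, RNASE6, MTHFD2, S100A8 and S100A9. The arrays, lists and rules were chosen with earlier results of these data known. Alternatives covered the block, normalization, pseudocount, dim genes, probe sets, arrays fitted and each replicate left out. The number of arrays limits the precision.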

Additional observations from a re-analysis of the deposited data

Results flagged for a closer look

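Among 142 groups of 4 GSK3A arrays, 1 for each named gene, 2 held an array far from the others, where chance alone would single out about 1 in 20. For FBXW11 hairpin 6 replicate 2 was the highest array, with a gap to the next of 0.857 of the group's range. For MPO, which is dim in U937, hairpin 5 replicate 2 was the lowest, with a gap of 0.903 of the range.

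The GSK3A change in U937 differed from the mean change in HL-60, THP-1 and MOLM-14 for 46 named genes by limma's test of the difference itself, 28 of them more upward and 18 more downward. The larger upward log2 differences were MS4A4A 1.62, LY96 1.21, FCGR2B 1.08, SCML1 0.94, ANXA1 0.85, VIM 0.85, CHI3L1 0.78, S100A8 0.73, MPO 0.70, IRF9 0.65, RNASE6 0.64, IFI6 0.60, CTSS 0.58 and S100A9 0.58. An upward difference need not be a rise in U937. MPO and S100A9 did not pass there. MPO gave 0.13 in U937 and -1.28 in MOLM-14. S100A8 gave 0.27 in HL-60, -0.88 in THP-1 and -0.32 in MOLM-14. S100A9 gave 0.26, -0.65 and -0.55 in the same order. Over whole lists the monocyte genes went both ways, with 5 surface receptors more upward and 6 more downward of 47, and 7 and 7 of 35 secreted and cytosolic proteins. These were 23.4% and 40% called, against 4.42% of all genes. Smaller upward differences were EVI2B 0.54, LY86 0.53, CCR1 0.51, MYOF 0.47, TNFAIP3 0.43, ATP6V1H 0.36, ABCC2 0.36, CTSG 0.35, GLIPR1 0.34, OAS1 0.34, CTSB 0.32, PPARG 0.30, EBP 0.27 and ATP6V1B2 0.21. CTSG was lower in U937 (-0.25) and gave -1.29 in HL-60, -0.40 in THP-1 and -0.13 in MOLM-14. Downward differences were CACNA2D3 -0.88, INPP4B -0.76, NFE2 -0.74, NPTXR -0.66, IFT57 -0.63, NPDC1 -0.61, RGCC -0.58, DOCK9 -0.55, CCND2 -0.53, SIGLEC5 -0.51, TFR2 -0.48, GFI1 -0.42, CD14 -0.40, GSTP1 -0.32, NOP16 -0.30, LYL1 -0.29, MRTO4 -0.19 and DDX21 -0.18. CD14 gave 0.03 in U937 and 1.21 in HL-60. A downward difference need not be a fall particular to U937. DOCK9 gave -0.97 in U937 and -1.09 in MOLM-14. Its control means of 8.46 in HL-60 and 11.1 in THP-1 are dim, where a fall is understated. The same holds for CCND2 in THP-1 (6.78), SIGLEC5 in THP-1 (10.3) and MOLM-14 (8.81), and NPTXR in all the other lines. CCND2 was bright in HL-60 and MOLM-14, with changes of -0.42 and -0.14.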

How the results depend on the processing

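The count of genes that differed between GSK3A hairpins and control was 1937 with the plate column block and 811 without it, 151 in columns 1 to 6 alone, 2 in columns 7 to 11 alone, and 77 with line and construct as a random block. Without the block, hairpin 5 gave 557 genes, hairpin 6 gave 628, the hairpins differed in 304, the GSK3A and GSK3B hairpins in 609, and U937 and the other lines in 78. The GSK3A and GSK3B hairpins differed in 28 genes in columns 1 to 6, 6 in columns 7 to 11 and 81 with the random block. U937 and the other lines differed in 11, 0 and 5 in the same order, with 316 genes at an unadjusted limma p under 0.05 in columns 7 to 11, and in 352 with a pseudocount of 1. Higher calls made up 50.9% of the GSK3A calls, 60.9% in columns 1 to 6, 74.0% with the random block and 45.4% with median scaling.

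With the replicate number as a block in place of the plate column, 2267 genes passed, 1363 of them shared, and the hairpins differed in 686. The pairing it assumes puts control 2 with arrays of the other column set. Under it EGR1 (0.79), CCL2 (-0.81), ACOX2 (-0.12), NPDC1 (0.017), AZU1 (0.20), ELANE (0.18), CTSG (0.21), HMGCS1 (-0.24), EBP (-0.24), NQO1 (-0.037), FCER2 (0.18) and S100A8 (-0.48) changed sign; the cause was not tested.

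Leaving out 1 array gave 1326 to 1866 genes for GSK3A against control, 663 to 1501 for hairpin 5 (663 without its replicate 1), 1019 to 1617 for hairpin 6 (1019 without its replicate 1, 1114 without its replicate 2), 619 to 711 between hairpins (619 without hairpin 5 replicate 1, 669 without hairpin 6 replicate 2), 1224 to 1565 against GSK3B hairpins, and 274 to 586 against the other lines (331 without control 1, 282 without control 2, 274 without hairpin 5 replicate 1, 345 without hairpin 6 replicate 1). Of 132 named genes called in U937, 77 kept the call without the block, 95 under the replicate block, 129 with median scaling, 131 without quantile normalization, 125 and 128 with a pseudocount of 1 and 64, 120 with the mean of probe sets, 114 with U937 arrays only and 21 with the random block.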
